A study of Macaca fascicularis with 2 samples.

Results

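Solute carriers are membrane proteins that move ions, metals, sugars, amino acids, nucleotides and other small molecules across the cell surface or across the membranes of organelles, and their genes are named SLC followed by a family number. The genes described here are the solute carrier genes with the most RNA in the fetal monkey ovary. They were chosen as every row of the count table whose name starts with SLC and a digit and which held at least 3000 unique molecular identifiers (UMIs, 1 per captured RNA molecule) over all cells. This gave 72 of the 321 SLC genes in the table, which holds 18446 genes. In the ovary, growing oocytes are joined to granulosa cells by gap junctions and receive small molecules from them, while most carriers of the SLC25 family lie in the inner mitochondrial membrane and exchange ADP, ATP, phosphate and other metabolites between the mitochondrial matrix and the cytosol.

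The cells came from whole ovaries of Macaca fascicularis, from 1 fetus at embryonic day 84 (E84) and 1 at E116, untreated, with both ovaries of a fetus digested together and loaded as 1 single-cell 3′ library. Barcodes end in 1 or 2, but nothing in the table ties an ending to a stage. The 20967 cells are therefore treated together, the endings serve only as unlabelled technical sets, and no result by stage is given. With no replicates no test was made between groups. Levels are summed UMIs of a group per 1000000 UMIs of that group (CPM), and the intervals in parentheses are exact 95% intervals that cover counting error only and not the difference between animals.

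Cells were named from marker genes, none of which is an SLC gene, and the clusters were made without SLC genes. The named groups were 250 mitotic-like, 1268 premeiotic-like, 1279 meiotic-like and 666 oocyte-like germ cells, and 6369 granulosa-like, 4574 stroma-like, 1260 ovarian surface epithelium-like, 543 endothelial-like, 138 pericyte-like, 248 macrophage-like and 745 erythroid-like cells. Median depth per cell ran from 2623.5 UMIs in macrophage-like to 11861.5 in mitotic-like cells. The oocyte-like cells formed a shallow sub-cluster of 353 cells with a median of 1109 UMIs and an RNA-rich one of 313 cells with a median of 18218, so that their sums are mostly those of the RNA-rich cells, and only 20 of the 666 had a barcode ending in 1. Of the 250 mitotic-like cells, 247 had that ending. The granulosa markers summed to 948 CPM in ovarian surface epithelium-like cells, against 1426 in granulosa-like and 170 in stroma-like cells. The cells named macrophage-like also carried 8 of 8 lymphocyte markers, at a summed 2017 CPM, and are a mixed immune group. In erythroid-like cells the lymphocyte markers summed to 2636 CPM, above the 2262 CPM of the erythroid markers there. The part of lymphocytes in the erythroid-like group was not tested. Another 2828 germ cells fitted no step, and a cluster of 799 cells, all with barcodes ending in 2 and led by CBLN2 and LYPD1, kept no name. Both were left out of the comparisons. The 2 sets shared 27 barcodes. Mitochondrial transcripts took 20.5% of the UMIs of oocyte-like cells, 7.41 to 14.2% in the other germ cell steps and 16.7% in granulosa-like cells. The part of this in the ratios below was tested only by 2 alternatives. These left the transcripts out of the totals or kept only cells with at most 10% of them.

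RNA free in the droplets gives every group some UMIs of genes it does not express. The oocyte genes ASTL and GDF9, at 645 and 374 CPM in oocyte-like cells, were found in the somatic classes at 0.742 to 3.09% and 1.48 to 5.12% of those levels. In the other direction, the collagen genes COL1A1 and COL3A1 were found in the 4 germ cell steps at 0.514 to 1.93% of their level in stroma-like cells. In somatic cells, levels of a germ cell gene in the range of shares of ASTL and GDF9 are read here as not above that background. In oocyte-like cells COL1A1 and COL3A1 were at 0.514 and 0.881%, and the erythroid genes ALAS2, AHSP and HBM at 0.0135 to 0.208% of their erythroid-like level. SLC38A1, SLC39A8, SLC25A37, SLC22A17, SLC2A11, SLC11A1 and SLC25A29 stood there at 1.79 to 3.10% of their highest somatic class, above these shares. The part of free RNA in these low levels was not tested, and the sizes of their ratios below carry that limit. In oocyte-like cells the summed markers of endothelial cells (9 in the table) and macrophages (9) stood at 739 and 353 CPM, of which VWF held 618 and CSF1R 350.2 CPM, while C1QA was at 0, as was CLDN5, which was at 1.49 CPM in endothelial-like cells too. VWF stood at 204 CPM in endothelial-like and CSF1R at 268 CPM in macrophage-like cells, both below their oocyte-like levels. The part of these cell types in the results was not tested.

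The 72 members held 628141 of the 148824177 UMIs of the table, or 0.422% (0.421 to 0.423). Their share of a group's UMIs was 0.435% in oocyte-like, 0.420% in mitotic-like, 0.398% in premeiotic-like and 0.355% in meiotic-like cells. Among somatic classes it was highest in ovarian surface epithelium-like cells at 0.476%, followed by granulosa-like cells at 0.462%, and lowest in erythroid-like cells at 0.103%. Summed over the members, oocyte-like and pooled somatic cells therefore stood at nearly the same level, with a log2 ratio of 0.02 (0.00 to 0.03). With mitochondrial transcripts left out of the totals it was 0.17. This near equality hid large differences between single members in both directions. The members span 24 numbered families, of which SLC25 (19 members), SLC35 (10) and SLC39 (10) are the largest. The last members to pass the threshold were SLC41A3 with 3230, SLC25A46 with 3222 and SLC7A1 with 3085 UMIs, and the first SLC genes below it were SLC6A13 with 2913, SLC25A13 with 2885 and SLC11A2 with 2839 UMIs.

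**Figure D1:**
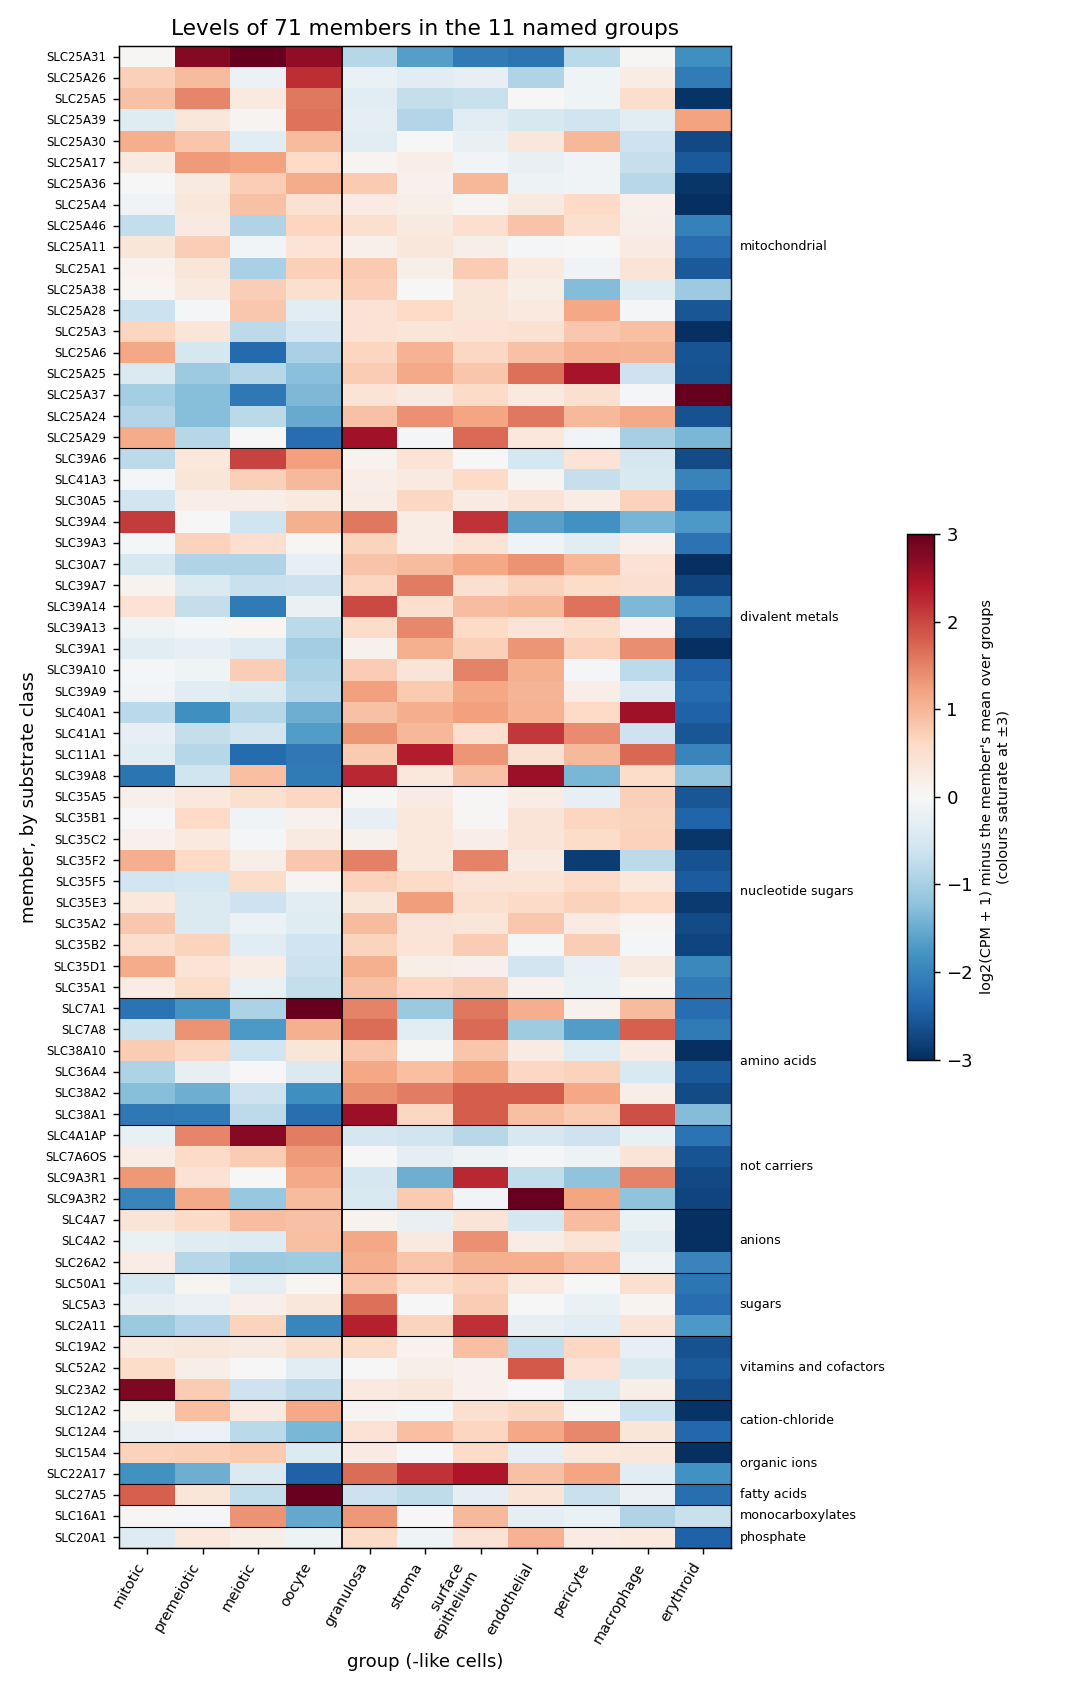
Heat map of 71 of the 72 members (rows, grouped by substrate class) in the 11 named groups (columns, germ cell steps left of the vertical line), each cell showing log2(CPM + 1) minus the member's mean over the groups. SLC25A31 is red in premeiotic-like, meiotic-like and oocyte-like cells, SLC25A37 in erythroid-like cells, and the column of erythroid-like cells is blue for most members.

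For each member the group with the highest level was noted, beside the same count over the 6642 genes of the table with at least 3000 UMIs. The threshold on total UMIs favours genes of the groups with most RNA, and it does so for members and for these 6642 genes alike. Granulosa-like cells held the highest level of 14 members (19.4%), against 8.67% of the 6642 genes. Ovarian surface epithelium-like cells led for 9 members (12.5%, background 6.40%), oocyte-like cells for 9 (12.5%, background 13.8%), and meiotic-like cells for 8 (11.1%, background 22.5%). Endothelial-like cells led for 8 (background 8.99%), macrophage-like cells for 8 (6.41%), mitotic-like cells for 4 (8.01%), stroma-like cells for 4 (6.26%), pericyte-like cells for 4 (6.31%), premeiotic-like cells for 3 (12.4%) and erythroid-like cells for 1 (0.211%). In all, 24 members were highest in a germ cell step, while 56.7% of the 6642 genes were, and 48 were highest in a somatic class. Every member had a UMI in each of the 11 groups, and 62 of the 72 spanned more than 10-fold between their highest and lowest group, against 93.1% of the 6642 genes that had a UMI in every group. The lowest group was the erythroid-like one for 58 members, as it was for 88.7% of the 6642 genes.

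Oocyte-like cells were first compared with the 13877 cells of the 7 somatic classes pooled. Of the 72 members, 12 (16.7%) were at least 2-fold higher in oocyte-like cells, against 20.6% of the 6642 genes, and 30 (41.7%) were at least 2-fold lower, against 26.0%. The median log2 ratio was −0.54 over the members and −0.05 over the 6642 genes. The premeiotic-like, meiotic-like and mitotic-like cells together, compared with the same somatic cells, gave 7 members (9.72%) at least 2-fold higher, against 22.5% of all genes, and 24 (33.3%) at least 2-fold lower, against 20.6%. The median log2 ratio there was −0.47 over the members and 0.16 over all genes. Both comparisons share the somatic cells, so that their values are given side by side. Between oocyte-like cells and the other germ cell steps, 5 members (6.94%) were at least 2-fold higher, against 9.77% of all genes, and 13 (18.1%) at least 2-fold lower, against 18.9%. These 2 sides differed in their barcodes, which ended in 1 for 2273 of the 2797 other germ cells and for 20 of the 666 oocyte-like cells.

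**Figure D2:**
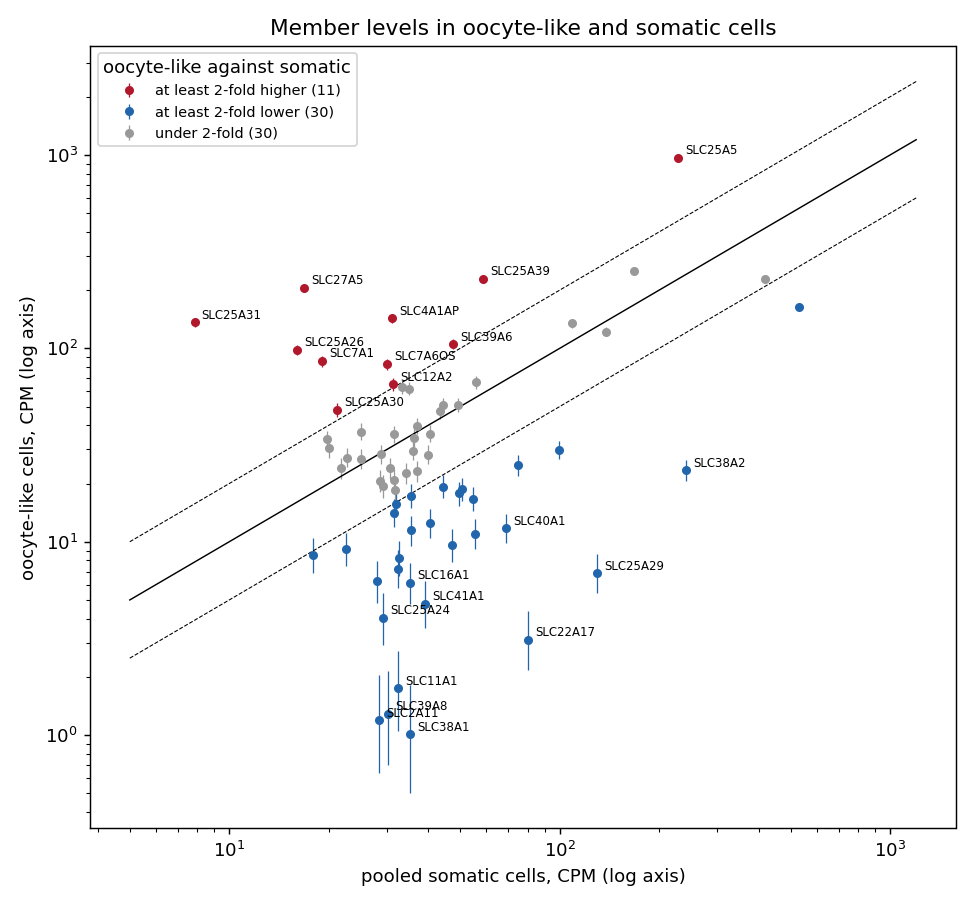
Level of 71 of the 72 members in oocyte-like cells against pooled somatic cells, both in CPM on log axes, with exact 95% counting intervals on the oocyte-like level and dashed lines at 2-fold. The 11 members drawn above the upper line include SLC25A31 (136 against 7.85 CPM) and SLC27A5 (205 against 16.8 CPM), and the 30 below the lower line reach down to SLC38A1 (1.01 against 35.2 CPM).

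The largest class was that of the 19 carriers of the SLC25 family, mitochondrial but for the peroxisomal SLC25A17, which held 312042 UMIs. In oocyte-like against somatic cells 5 members were at least 2-fold higher and 5 at least 2-fold lower of the 19, near the 20.6% and 26.0% over all genes. The summed level was 2509.5 CPM in oocyte-like, 2479 in mitotic-like, 2407 in premeiotic-like and 1730.4 in meiotic-like cells, against 1951 (stroma-like) to 2334 (pericyte-like) in the somatic classes other than the erythroid-like one.

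Of these genes, 4 encode carriers that exchange ADP for ATP, and the makeup of this group of 4 differed between germ and somatic cells. SLC25A31, an isoform known from the germ line, stood at 21.3 CPM in mitotic-like, 144 in premeiotic-like, 335 (323 to 348) in meiotic-like and 136 (130 to 144) in oocyte-like cells. In the 7 somatic classes it stood between 3.72 and 21.1 CPM, with a pooled level of 7.85, which is 2.34% of the meiotic-like level and thus within the range of free RNA, while the macrophage-like level was 6.30% of it and above that range. Of the 4 germ cell steps, 3 lay above every somatic class, and mitotic-like cells lay beside the macrophage-like class. Its log2 ratio to somatic cells was 4.12 (3.99 to 4.25) for oocyte-like cells and 4.66 (4.54 to 4.78) for the other germ cell steps.

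SLC25A5, the isoform known from proliferating cells, stood at 595 CPM in mitotic-like, 895 in premeiotic-like, 396 in meiotic-like and 969 (951 to 988) in oocyte-like cells, with a somatic range of 40.9 to 464 CPM. It was 4.24-fold higher in oocyte-like than in somatic cells, a log2 ratio of 2.09, which was 0.89 with only barcodes ending in 1. SLC25A6 went the other way, with 716 (687 to 745) CPM in mitotic-like cells but 221 in premeiotic-like, 62.8 in meiotic-like and 163 in oocyte-like cells. Outside erythroid-like cells, where it stood at 52.3 CPM, the somatic classes lay between 491 and 660 CPM, above all germ cell steps but the mitotic-like one. SLC25A4, the isoform known from heart and skeletal muscle, stood between 91.4 and 182 CPM in the germ cell steps and between 104 and 151 CPM in the somatic classes other than the erythroid-like one.

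As a share of the UMIs of these 4 genes, SLC25A31 made up 34.3% (33.3 to 35.4) in meiotic-like, 10.4% in premeiotic-like, 9.72% in oocyte-like and 1.5% in mitotic-like cells, and 0.895% in pooled somatic cells. SLC25A6 made up 50.3% in mitotic-like cells, 16.0% in premeiotic-like, 6.43% in meiotic-like and 11.6% in oocyte-like cells, and 60.6% in somatic cells. SLC25A5 made up 69.1% in oocyte-like and 26.0% in somatic cells. The summed level of the 4 genes was 1404 CPM in oocyte-like, 1423 in mitotic-like and 1386 in premeiotic-like cells, 976 in meiotic-like and 877 in somatic cells. The coding sequences of these isoforms are alike, so reads of one may have been counted for another, and how the counting treated them was not tested.

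**Figure D3:**
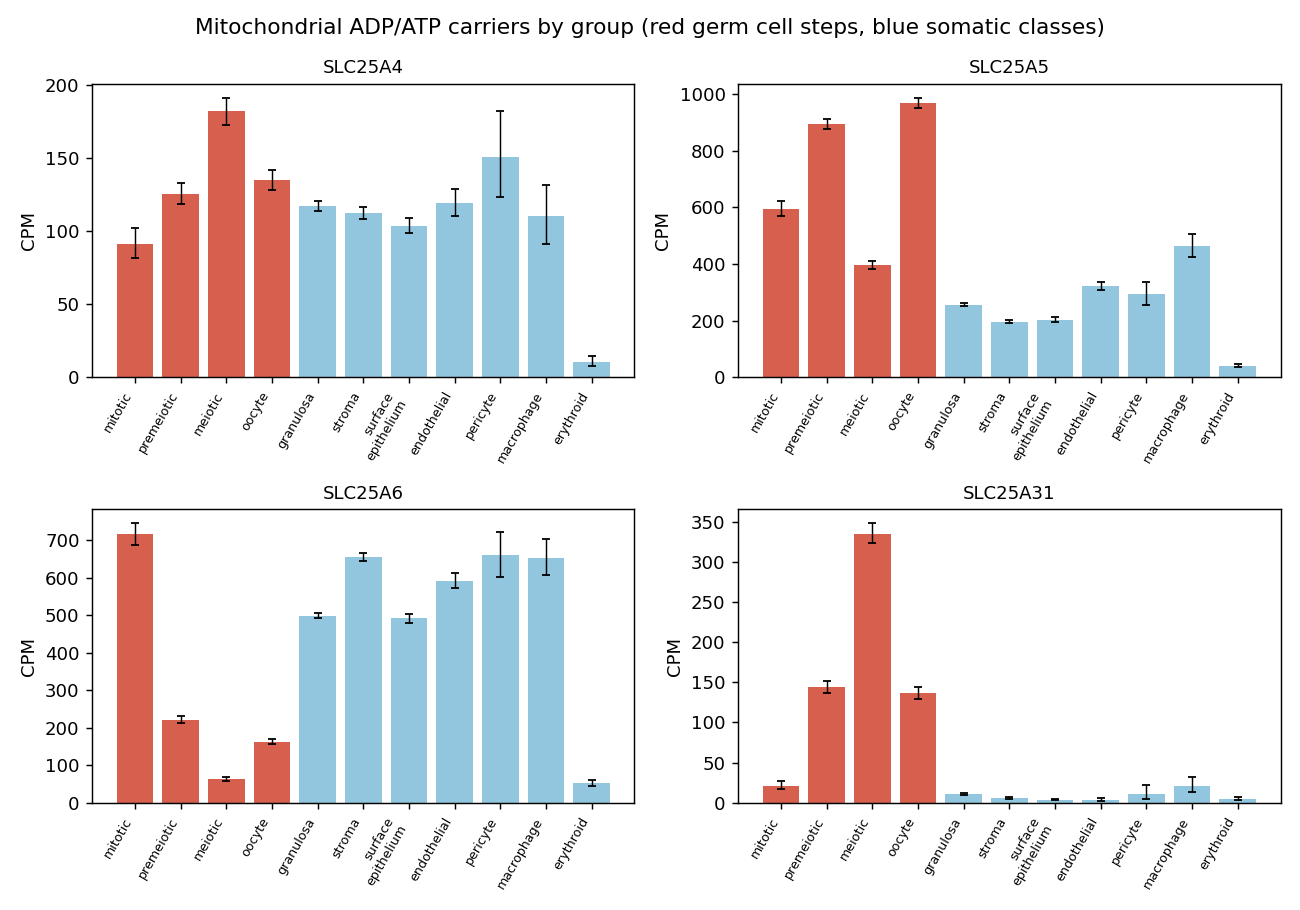
Level in CPM of the 4 ADP/ATP carrier genes in the 11 named groups (bars, each panel with its own axis from 0, error bars are exact 95% counting intervals). SLC25A31 peaks at 335 CPM in meiotic-like cells, SLC25A5 at 969 CPM in oocyte-like cells, and SLC25A6 stands at 62.8 CPM in meiotic-like cells.

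Other mitochondrial carriers were high in oocyte-like cells. SLC25A26, which imports the methyl donor S-adenosylmethionine into mitochondria, stood at 98.1 (92.3 to 104) CPM in oocyte-like cells, between 17.9 and 39.9 CPM in the other germ cell steps and between 3.96 and 23.9 CPM in the somatic classes, a log2 ratio to somatic cells of 2.61 (2.49 to 2.72). SLC25A39, a carrier of glutathione, stood at 229 CPM in oocyte-like and 172 CPM in erythroid-like cells, and between 39.3 and 93.1 CPM in all other named groups. SLC25A30 stood at 48.2 CPM in oocyte-like, 52.9 in mitotic-like and 49.8 in pericyte-like cells, with a log2 ratio of 1.18 (1.04 to 1.32) between oocyte-like and somatic cells. SLC25A17, a carrier of cofactors in the peroxisome membrane, was at least 2-fold higher in the other germ cell steps (44.5 CPM) than in somatic cells (20.0 CPM), but in oocyte-like cells stood at 30.5 CPM.

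Beside SLC25A6, 4 mitochondrial carriers were at least 2-fold lower in oocyte-like than in somatic cells, and each was highest in a somatic class. SLC25A37, mitoferrin 1, which brings iron into mitochondria for haem synthesis, stood at 424 (403 to 445) CPM in erythroid-like cells and at 44.1 CPM in the next highest group, ovarian surface epithelium-like cells. SLC25A29, a carrier of basic amino acids, stood at 222 CPM in granulosa-like and 124 CPM in ovarian surface epithelium-like cells, 82.5 CPM in mitotic-like and 6.88 (5.41 to 8.62) CPM in oocyte-like cells, a log2 ratio of −4.24 (−4.58 to −3.91) to somatic cells. The calcium-regulated ATP-Mg and phosphate carriers SLC25A25 and SLC25A24 were highest in pericyte-like cells (141 CPM) and endothelial-like cells (41.9 CPM), and stood at 9.63 and 4.04 CPM in oocyte-like cells. The phosphate carrier SLC25A3 stood between 187 and 508 CPM in the germ cell steps and between 416 and 603 CPM in the somatic classes other than the erythroid-like one, at 38.5 CPM.

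Metal transporters formed a class of 16 members. In oocyte-like cells 11 were at least 2-fold lower and 1 at least 2-fold higher than in somatic cells, against 26.0% and 20.6% of the 6642 genes. In the other germ cell steps 8 were lower and 1 higher, against 20.6% and 22.5%. The summed level in the germ cell steps ran from 396 CPM in premeiotic-like to 570.2 in mitotic-like cells, with 456 in oocyte-like cells. In the somatic classes other than the erythroid-like one it ran from 570.2 CPM in pericyte-like to 971 in ovarian surface epithelium-like cells, so that the ranges met. Of the 10 zinc importers of the SLC39 family, 7 were at least 2-fold lower in oocyte-like than in somatic cells, against 26.0% of the 6642 genes. The sum of the 10 had a log2 ratio of −0.71 (−0.76 to −0.67).

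SLC39A6, a zinc importer of the plasma membrane, was the exception, with 185 (176 to 195) CPM in meiotic-like and 105 (99.1 to 111) in oocyte-like cells, 56.0 in premeiotic-like and 25.4 in mitotic-like cells, with a somatic range of 6.07 to 59.7 CPM. SLC39A10, its close relative, was 1.74 lower on the log2 scale in oocyte-like cells, where it stood at 29.8 CPM, and was highest in ovarian surface epithelium-like cells at 164 CPM. SLC39A8, which takes up zinc and manganese, had 57.9 CPM in endothelial-like, 47.0 in granulosa-like and 1.28 (0.702 to 2.15) in oocyte-like cells. SLC39A7, which releases zinc from the endoplasmic reticulum, stood at 118 CPM in stroma-like and 24.9 CPM in oocyte-like cells.

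SLC39A4, known for zinc uptake in the gut, was high in 4 groups: 261 CPM in ovarian surface epithelium-like, 251 in mitotic-like, 174 in granulosa-like and 122 in oocyte-like cells. In endothelial-like, pericyte-like, macrophage-like and erythroid-like cells it stood between 15.6 and 21.1 CPM. Its pooled log2 ratio of −0.18 between oocyte-like and somatic cells hid a difference between the barcode sets. Oocyte-like cells stood at 110 CPM in the set ending in 1 (24 UMIs) and at 122 in the set ending in 2, but somatic cells at 248 and 69.4 CPM, and the log2 ratio was −1.17 in one set and 0.82 in the other. Stage and ending cannot be told apart from other differences between the libraries.

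SLC40A1, ferroportin, the iron exporter of the cell surface, stood at 203 (177 to 231) CPM in macrophage-like cells, between 52.6 and 81.8 CPM in 5 other somatic classes, and between 8.83 and 19.2 CPM in the germ cell steps. SLC11A1, an exporter of divalent metals from the phagosomes of macrophages, was highest in stroma-like cells at 61.0 CPM, followed by macrophage-like cells at 39.5 CPM, and stood at 1.74 (1.05 to 2.72) CPM in oocyte-like cells. The magnesium transporter SLC41A1 had 78.7 CPM in endothelial-like and 4.77 in oocyte-like cells, while its paralog SLC41A3 was highest in oocyte-like cells at 33.9 CPM, with a log2 ratio of 0.78 (0.61 to 0.94) to somatic cells, which was −0.38 with only barcodes ending in 1.

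**Figure D4:**
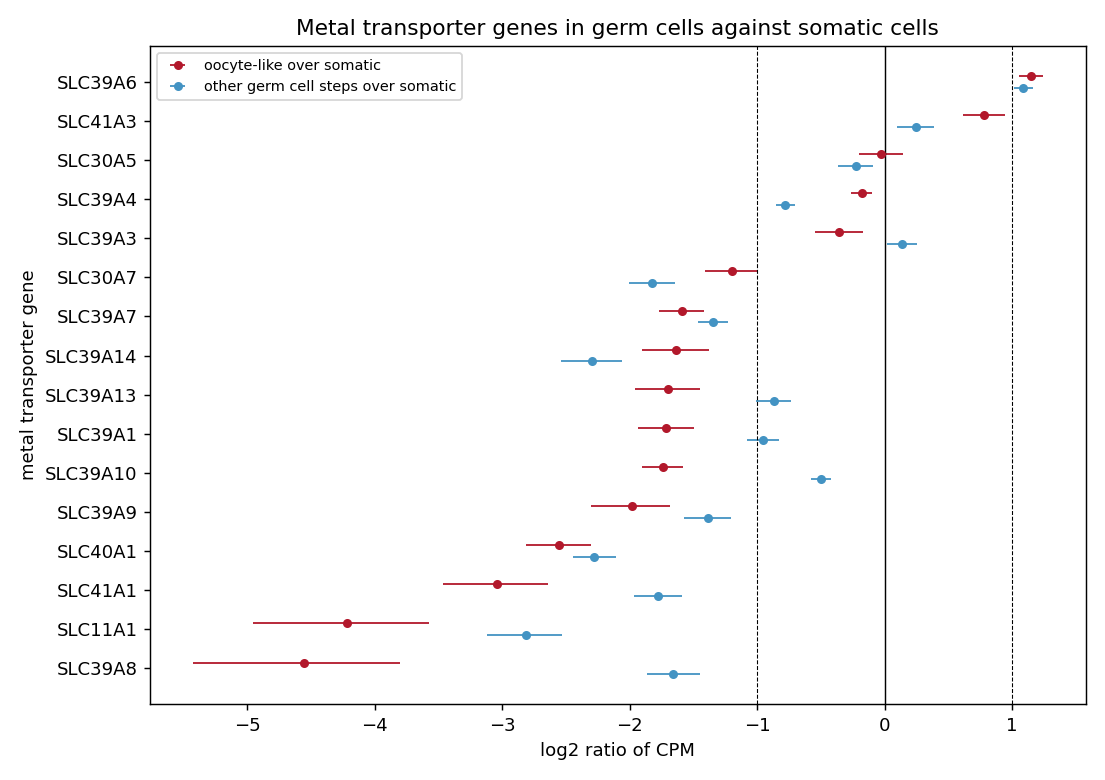
Log2 ratio of CPM of the 16 metal transporter genes in oocyte-like cells (red) and in the other germ cell steps (blue), each against the same pooled somatic cells, with exact 95% counting intervals and dashed lines at 2-fold. SLC39A6 lies beyond 2-fold on the right for both, and 11 genes lie beyond 2-fold on the left for oocyte-like cells, down to −4.55 for SLC39A8. The ratio of SLC39A8 was −2.36 with cells of 200 to 3000 genes. Its oocyte-like level was 2.22% of its endothelial-like level, and the part of free RNA in it was not tested.

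Of the 6 amino acid carriers, 1 was at least 2-fold higher and 3 were at least 2-fold lower in oocyte-like than in somatic cells. Over the 6642 genes the shares were 20.6% and 26.0%. SLC7A1, the main importer of arginine and lysine, stood at 86.0 (80.5 to 91.6) CPM in oocyte-like cells but between 1.18 and 4.23 CPM in the other germ cell steps. It was 31.9-fold higher in oocyte-like cells than in those steps, most of whose cells had barcodes ending in 1. In the somatic classes it ranged from 1.06 CPM in erythroid-like and 3.70 in stroma-like cells to 27.2 in granulosa-like and 29.3 in ovarian surface epithelium-like cells. This level rests on the barcode set ending in 2, with 87.2 CPM in oocyte-like and 16.9 in somatic cells. In the set ending in 1 the 20 oocyte-like cells held 5 UMIs, or 22.9 CPM, against 22.5 CPM in somatic cells.

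The sodium-coupled carriers of neutral amino acids SLC38A1 and SLC38A2 were lower in each germ cell step than in pooled somatic cells, while SLC38A10 of the same family stood at 36.2 CPM in oocyte-like and 40.5 in somatic cells. SLC38A2 stood at 23.4 CPM in oocyte-like, 30.6 in premeiotic-like, 35.2 in mitotic-like and 56.4 in meiotic-like cells, below all somatic classes but the erythroid-like one (12.7 CPM), which lay between 99.1 and 309 CPM. SLC38A1 stood at 56.3 CPM in granulosa-like cells and at 1.01 (0.504 to 1.81) CPM in oocyte-like cells, where 11 UMIs were counted. That is 1.79% of the granulosa-like level, and the part of free RNA in it was not tested. SLC36A4 stood at 17.8 CPM in oocyte-like and 56.1 in granulosa-like cells. SLC7A8, a light chain that carries large neutral amino acids, stood at 53.3 CPM in granulosa-like, 57.8 in macrophage-like, 42.3 in premeiotic-like and 34.4 in oocyte-like cells, but at 4.10 in meiotic-like cells. Its heavy chain SLC3A2 is not among the members, since its UMIs are divided between 2 rows of the table with 482 and 2706 UMIs. The larger row stood at 6.60 CPM in oocyte-like and 21.4 in somatic cells.

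Among carriers of lipids and small organic molecules, SLC27A5 stood out. It belongs to the fatty acid transport family and activates bile acids and fatty acids with coenzyme A, and is known mostly from liver. It stood at 205 (197 to 214) CPM in oocyte-like, 90.2 in mitotic-like, 32.9 in premeiotic-like and 14.6 in meiotic-like cells, with a somatic range of 4.49 to 33.3 CPM. The log2 ratio was 3.61 (3.51 to 3.70) between oocyte-like and somatic cells and 2.56 (2.44 to 2.68) between oocyte-like and other germ cells. Within the barcode sets ending in 1 and in 2 the log2 ratio to somatic cells was 4.21 and 3.48. SLC22A17, a receptor of lipocalin 2, stood at 3.12 CPM in oocyte-like cells and at 118 in ovarian surface epithelium-like and 98.5 in stroma-like cells. SLC16A1, which carries lactate, pyruvate and other monocarboxylates, stood at 52.2 CPM in meiotic-like and 50.0 in granulosa-like cells and at 6.15 (4.76 to 7.81) CPM in oocyte-like cells.

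The 3 sugar carriers were all highest, among the named groups, in granulosa-like cells. SLC2A11, a facilitative transporter of hexoses, stood at 41.9 CPM there and at 38.2 in ovarian surface epithelium-like cells, at 12.4 in meiotic-like and at 1.19 (0.635 to 2.04) in oocyte-like cells. SLC5A3, which imports myo-inositol, and SLC50A1 stood at 58.7 and 36.6 CPM in granulosa-like and at 23.1 and 20.9 CPM in oocyte-like cells. In the unnamed cluster left out of the comparisons all stood higher, SLC2A11 at 52.0, SLC5A3 at 76.1 and SLC50A1 at 56.2 CPM. The 10 SLC35 genes, most of which carry nucleotide sugars into the endoplasmic reticulum and Golgi apparatus, are known for glycosylation. None was at least 2-fold higher in oocyte-like than in somatic cells and 5 were at least 2-fold lower, with a median log2 ratio of −0.75. Over the 6642 genes the shares were 20.6% and 26.0%, and the median was −0.05. SLC35B1 stood at 47.3 CPM in oocyte-like and 43.3 in somatic cells, and SLC35A1, the carrier of CMP-sialic acid, at 18.7 and 50.5 CPM.

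Among the cation-chloride cotransporters, SLC12A2, which brings in sodium, potassium and chloride, stood at 65.2 CPM in oocyte-like and 55.7 in premeiotic-like cells, against 31.3 in somatic cells. SLC12A4, an exporter of potassium and chloride, stood at 6.24 CPM in oocyte-like and 49.8 in pericyte-like cells. Of the bicarbonate carriers, SLC4A7 was higher in oocyte-like (63.0 CPM) than in somatic cells (33.4 CPM) at a log2 ratio of 0.91 (0.79 to 1.03), but at −0.20 with only barcodes ending in 1, and SLC4A2 differed little, at 50.9 and 49.4 CPM. The phosphate importer SLC20A1 stood at 28.2 and 40.0 CPM, and its log2 ratio of −0.51 was 0.39 with only barcodes ending in 1.

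Of the 3 vitamin carriers, SLC23A2 and SLC52A2 each stood above 2-fold in 1 group over the next. SLC23A2, which imports ascorbate, stood at 113 (102 to 125) CPM in mitotic-like cells, 4.22 times its level in the next group, the premeiotic-like cells at 26.8, and at 8.53 CPM in oocyte-like cells. SLC52A2, which imports riboflavin, had 106 (97.7 to 115) CPM in endothelial-like cells, and no other named group was above 42.9 CPM. The thiamine importer SLC19A2 differed little between oocyte-like (23.9 CPM) and somatic cells (21.8 CPM).

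Another 4 members carry the name of a carrier without being one. SLC4A1AP, kanadaptin, stood at 326 (314 to 339) CPM in meiotic-like, 143 in oocyte-like, 135 in premeiotic-like and 41.7 in mitotic-like cells, with a somatic range of 9.77 to 41.3 CPM. SLC7A6OS lies on the strand opposite SLC7A6 and stood at 83.0 CPM in oocyte-like and 30.1 in somatic cells, whereas SLC7A6 stood at 1.56 and 12.6 CPM. The scaffold proteins SLC9A3R1 and SLC9A3R2 marked ovarian surface epithelium-like cells (137 CPM) and endothelial-like cells (224 CPM), 5.25 times the next group for the latter. In the RefSeq annotation of another build of the genome (T2T-MFA8v1.1), which was used for names and neighbours only, 68 members were found by symbol and 11 overlapped a protein-coding neighbour. Of these 11, 5 were at least 2-fold higher in oocyte-like than in somatic cells, against 20.6% of the 6642 genes. ZNF446, which overlaps SLC27A5, stood at 2.29 CPM in oocyte-like and 9.59 in somatic cells, and LRIG1, which overlaps SLC25A26, at 67.1 and 21.4 CPM. TPT1, which overlaps SLC25A30, stood at 1690 and 5718 CPM. The part of reads from such neighbours in the levels of the members was not tested.

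Ratios were also taken within each barcode set. All 12 members at least 2-fold higher in oocyte-like than in somatic cells were higher in both sets, 9 of them past 2-fold in each. Of the 30 at least 2-fold lower, 30 were lower in the set ending in 2 and 29 in the set ending in 1, past 2-fold in 29 and 25. The set ending in 2 held 10683173 UMIs of oocyte-like cells, most of their total, so agreement with the pooled ratios is nearly given there. The set ending in 1 held 218173, and 5 members had no UMI in it, so its ratios are coarse. Of the 12 higher members, SLC7A1 stood at a log2 ratio of 0.03 in that set. For the comparison of oocyte-like with other germ cells, all 13 lower members were lower in the set ending in 2 but 9 of them in the set ending in 1. The 5 higher members were higher in both sets, past 2-fold for 3 in the set ending in 1 and for 4 in the other. In the shallow oocyte-like cells alone, SLC27A5 stood at 73.5 CPM and SLC25A5 at 472 CPM, against 215 and 1005 CPM in the RNA-rich ones, and SLC25A31 at 88.5 against 140.0 CPM.

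**Figure D5:**
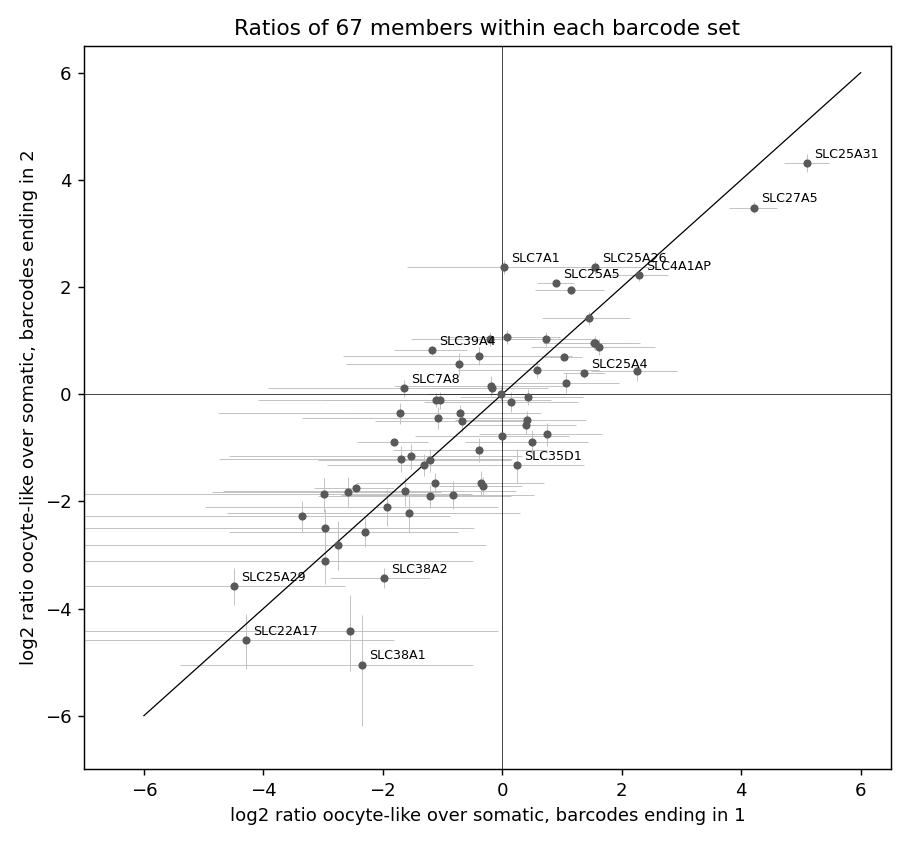
Log2 ratio of oocyte-like over somatic cells for 67 members within barcodes ending in 1 (x axis) and in 2 (y axis), with exact 95% counting intervals (some run past the left edge) and the line of equality. Of the 67, 52 have the same sign in both sets, SLC25A31 and SLC27A5 lie at the upper right, and SLC39A4 changes sign, from −1.17 to 0.82.

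Genes that work with these carriers, enzymes of their pathways and carriers of SLC families under other symbols were listed as a group. It held 22 genes, 21 of them in the table. The pyruvate carrier subunit MPC2 stood at 240 CPM in oocyte-like and 367 in meiotic-like cells against 71.9 in somatic cells, and VDAC3, a channel of the outer mitochondrial membrane, at 291, 526 and 129 CPM. Hexokinase 2 (HK2), which traps glucose in the cell, stood at 2.66 CPM in oocyte-like and 74.5 in granulosa-like cells, and LDHB, a subunit of lactate dehydrogenase, at 53.2 and 379 CPM. Among the 21 genes, 4 were at least 2-fold higher and 8 at least 2-fold lower in oocyte-like than in somatic cells, against 20.6% and 26.0% of the 6642 genes. The 6642 genes each held at least 3000 UMIs, but no such minimum was set for the 21. Genes with fewer UMIs were among both the 4 and the 8, including a lower one with no UMI in oocyte-like cells. The 2 sets of genes are therefore not matched in UMIs.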

How the data were processed

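Single-cell 3′ libraries of 2 fetal stages were processed by the authors with Cell Ranger 3.0.2 and Seurat against Macaca_fascicularis_5.0, and the values they deposited are unnormalized UMI counts, for 18446 genes in 20967 cells, with at least 200 genes per cell and 3 cells per gene. The members and all lists were chosen with earlier results of these data known. Cells were clustered in Seurat 5.3.0 (R 4.3.3) on 2000 variable genes without SLC genes, with 18 principal components, 20 neighbours and resolution 0.6, and germ cells were clustered again. All cells were kept, since a limit of 3000 genes removes RNA-rich cells. A cluster was named from at least 3 listed markers, each at least 1.5-fold higher than in the other cells with 10 CPM added and found in at least 5% of cells. Scrublet (scanpy 1.11.5) called 0 doublets and so did not work, and none were removed. Sums, exact Poisson intervals of levels and exact binomial intervals of ratios were computed in Python 3.11.15 with scipy 1.17.1 and checked on simulated data. No test between groups was made, because cells are not replicates. Named were the 12 highest and 12 lowest members in oocyte-like over somatic cells, the 6 highest and 6 lowest in other germ cells over somatic cells, 3 per group by the ratio over the next group, 2 per substrate class by UMIs, the 3 on each side of the threshold and the carriers with a partner. Members outside this rule, such as SLC35D1, and all partner genes and neighbours were named after their values were seen. Alternatives were other cell limits, clusterings, scalings, barcode sets and minimum UMIs. The values of 1 member, which stays in all counts and sums, and of 1 partner gene are not reported here. No sequence is shown, since no genome of this build was used here.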

Additional observations from a re-analysis of the deposited data

How the results depend on the processing

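The summed log2 ratio of the members between oocyte-like and somatic cells, 0.02, lay near 0 and changed sign with the settings. It was −0.073 with cells of 200 to 3000 genes, 0.35 with at most 10% mitochondrial UMIs, −0.026 at resolution 0.4, −0.014 at resolution 1.0, 0.085 as a mean of single-cell CPM, 0.17 without mitochondrial UMIs, 0.085 with median-of-ratios size factors, 0.17 with somatic classes weighted the same, −0.16 and 0.037 with barcodes ending in 1 and in 2, and 0.036 and 0.095 with a minimum of 1000 and 10000 UMIs. Among alternatives chosen after seeing the data, it was 0.048 in the RNA-rich and −0.52 in the shallow oocyte-like cells. The 7 members higher in other germ cells than in somatic cells became 4 with cells of 200 to 3000 genes, 4 as a mean of single-cell CPM and 3 with size factors. The 13 members lower in oocyte-like than in other germ cells became 8 under each of these 3 settings and 21 with at most 10% mitochondrial UMIs, and the 5 higher became 10 with barcodes ending in 1. The highest group stayed the same for 44 of the 72 members with at most 10% mitochondrial UMIs, where no ovarian surface epithelium-like class was named, and for 33 with barcodes ending in 1. That class was also not named when the 8% of cells with the highest Scrublet score were removed, where the highest group stayed the same for 57. A minimum of 1000 UMIs gave 134 members, with 21 higher and 56 lower in oocyte-like than in somatic cells, 16 and 48 in other germ cells than in somatic cells, and 17 and 28 in oocyte-like than in other germ cells. A minimum of 10000 gave 11 members, with 3 and 4, 2 and 3, and 1 and 2. The cause of these changes was not tested, other than the number of members under the minimum. Adding the unnamed cluster to the somatic cells, the third alternative chosen after seeing the data, moved none of these values past its limit. Of 2151 values of single members under the alternatives, 2043 kept their sign. Among values called against somatic cells 1 reversed, SLC35D1 in oocyte-like over somatic cells, at 0.25 with barcodes ending in 1. Of the 13 members called lower in oocyte-like than in other germ cells, only 9 were lower with barcodes ending in 1. Some settings moved the median log2 ratio of all genes as well, from −0.05 to 0.16 with at most 10% mitochondrial UMIs and to −0.58 in the shallow oocyte-like cells. No paired analysis was possible because the table does not map its cells to the samples and no result comes from a test. With 1 fetus per stage the spread between animals is unknown.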
